A study of Mus musculus with 550 samples.

Results

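A set of 9 genes of the interferon response and of antigen presentation were followed through single cells of differentiating embryoid bodies: Slfn9, H2-DMa, H2-K1, H2-D1, B2m, Isg15, Irf7, Ifih1 and Ifit1. These 9 of the 55228 gene names in the count table were chosen from a list drawn up with earlier results of the same data in view, among them the day 3 log2 ratio of Slfn9, so their differences are given as a description with no test. The question they address is whether loss of a DNA methyltransferase goes with viral mimicry, the state in which demethylated endogenous retroviruses are transcribed and cells answer as if infected. They bear on the answer of the cells only, and transcripts of the retroviruses were not analysed here. Of the 9 genes, the 4 genes Isg15, Irf7, Ifih1 and Ifit1 were close to absent in every group. Slfn9 was higher than in WT on both mutant plates of day 3 and in 3AKO at day 9, and B2m was lower than in WT in 3BKO at day 9.

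The cells came from E14 mouse embryonic stem cells (ESCs, strain 129/Ola) that formed embryoid bodies (EBs), aggregates that differentiate once LIF, the factor that holds ESCs undifferentiated, is withdrawn. The genotypes were wild type (WT), 3AKO, which is Dnmt3a -/-, and 3BKO, which is Dnmt3b -/-, each sampled at day 3 and at day 9, and no group received any other agent. Both knockouts are homozygous lines selected as clones, the methods describe 2 clones of each, and which cell came from which clone is not given in the labels. Dissociated EBs were pooled before sorting, so the 6 combinations of genotype and day are 1 sample each and cells are not replicates. Of 550 cells, 486 passed the filters of at least 50000 reads, at least 2000 detected genes and at most 50% mitochondrial reads, with 67 to 89 kept cells per combination. Median depth by group was 214366 to 363652 reads and 5652 to 7267 genes per cell.

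At day 3 the genotype labels of the mutants cannot be taken at face value. On plate 211 Dnmt3a had 25.8 CPM (counts per 1e6 reads, with the reads of a gene and of all genes each summed over cells) in batch 1 and 12.8 in batch 2, although the labels there read 3AKO in batch 1 and 3BKO in batch 2. On plate 210, labelled 3BKO in batch 1 and 3AKO in batch 2, it had 586.7 and 334.5 CPM, against 455.2 and 267.5 in WT on plate 209. Batch names the library batch, wells of columns 1 to 8 or of columns 9 to 12 of the same plate. Dnmt3b was below WT in both batches of both mutant plates. Its pooled level was 134 CPM on plate 210 and 227.9 on plate 211, against 567.1 on plate 209. The day 3 mutants are therefore described by plate, and by label where the text says so. At day 9 WT, 3AKO and 3BKO were plates 234, 236 and 238, so genotype and plate cannot be told apart. There each targeted gene was low in the knockout labelled for it. Dnmt3a had 25.2 CPM in 3AKO against 165.5 in WT, and Dnmt3b had 16.4 CPM in 3BKO against 166.5. Dnmt3a was also lower in 3BKO than in WT, with a log2 ratio of -1.38 pooled and -1.06 and -1.66 by batch. The day 9 comparison of 3BKO with WT is thus not one of Dnmt3b level alone.

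Interferons bind receptors that signal through JAK kinases and STAT proteins to the interferon-stimulated response element (ISRE) of target promoters. Ifih1 (MDA5) senses double-stranded RNA, Irf7 is the factor that amplifies type I interferon transcription, Isg15 is a ubiquitin-like modifier and Ifit1 binds foreign RNA. H2-K1 and H2-D1 are heavy chains of MHC class I and B2m is their shared light chain, which together present peptides at the cell surface. H2-DMa is a subunit of H2-DM, which loads peptides on MHC class II in antigen-presenting cells, and Slfn9 belongs to the Schlafen family, several of whose members are interferon-induced. Early embryonic and pluripotent cells are known for a weak interferon response and low MHC class I.

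The promoters of the members differ in whether they hold an exact match to a searched ISRE core, and 6 of them are shown because they span that range. Each line gives the 250 bases before the start site in GRCm38.p6 (RefSeq promoter table, in which all 9 members matched), 5′ to 3′ on the strand of the gene, with ISRE cores in capitals. The core searched was GAAA, any 2 bases, GAAA, on both strands, in windows of 300 bases that also take in the first 50 bases of the transcript.
Slfn9 (chr11:82991831-82992080, minus strand): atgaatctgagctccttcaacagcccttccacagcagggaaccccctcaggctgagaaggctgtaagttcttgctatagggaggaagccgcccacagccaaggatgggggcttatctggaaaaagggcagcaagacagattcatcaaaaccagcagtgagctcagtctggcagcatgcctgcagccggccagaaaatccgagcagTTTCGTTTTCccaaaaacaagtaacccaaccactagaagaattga
B2m (chr2:122147437-122147686, plus strand): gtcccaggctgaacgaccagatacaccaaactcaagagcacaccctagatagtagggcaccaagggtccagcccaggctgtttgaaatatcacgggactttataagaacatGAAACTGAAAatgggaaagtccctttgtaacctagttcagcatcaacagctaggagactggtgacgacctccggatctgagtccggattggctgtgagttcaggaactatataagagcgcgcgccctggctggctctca
Isg15 (chr4:156200819-156201068, minus strand): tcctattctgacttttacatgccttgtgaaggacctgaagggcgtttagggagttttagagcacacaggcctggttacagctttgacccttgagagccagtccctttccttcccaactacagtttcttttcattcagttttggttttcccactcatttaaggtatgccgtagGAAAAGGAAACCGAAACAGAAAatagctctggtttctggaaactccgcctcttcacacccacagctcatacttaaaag
Ifit1 (chr19:34640639-34640888, plus strand): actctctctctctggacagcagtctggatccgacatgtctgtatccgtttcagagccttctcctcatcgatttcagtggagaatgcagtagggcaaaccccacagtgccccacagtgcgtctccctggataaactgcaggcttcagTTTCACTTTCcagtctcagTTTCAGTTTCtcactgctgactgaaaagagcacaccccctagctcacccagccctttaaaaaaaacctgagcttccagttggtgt
H2-K1 (chr17:34000348-34000597, minus strand): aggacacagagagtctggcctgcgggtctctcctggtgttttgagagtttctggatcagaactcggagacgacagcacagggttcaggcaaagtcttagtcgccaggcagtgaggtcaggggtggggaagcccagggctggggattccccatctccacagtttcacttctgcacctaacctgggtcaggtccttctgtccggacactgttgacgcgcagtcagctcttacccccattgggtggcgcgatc
H2-DMa (chr17:34122582-34122831, plus strand): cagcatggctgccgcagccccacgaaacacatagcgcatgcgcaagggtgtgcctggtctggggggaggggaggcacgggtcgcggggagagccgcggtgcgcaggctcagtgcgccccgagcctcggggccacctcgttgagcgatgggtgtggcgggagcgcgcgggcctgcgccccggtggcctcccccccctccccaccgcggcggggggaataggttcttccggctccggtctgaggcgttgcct
Slfn9 held 1 core, whose first base lies at position -45 with the start site counted as 0, and B2m held 1 at -139. Isg15 held 3 overlapping cores, starting at -78, -72 and -66, and Ifit1 held 2, at -104 and -85. The window of Ifih1 held 1 core at 32, within the transcript. No exact match to the core was found in the windows of H2-K1, H2-D1, H2-DMa and Irf7. Variants of the pattern were not searched, so this does not show that these promoters lack an ISRE. A core was present in 3.44% of all 32851 windows, and the match describes letters, not binding. CpG counts per window were 4 in Ifit1, 6 in Slfn9, 6 in Isg15 and 7 in Irf7, near the median of 7 over all windows. They were 14 in B2m, 14 in Ifih1, 19 in H2-D1 and 14 and 15 in both windows of H2-K1. H2-DMa had 29 in the window shown and 0 in its other window (chr17:34125268-34125567). Methylation of these windows was not analysed here.

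All 9 members are protein-coding, and 6 of them share sequence or exons with other genes in a way that bears on their counts (GRCm38, GENCODE). Slfn9 lies on chromosome 11 (82978390 to 82991830), and 5.90% of the 75-base stretches of its exons also occur in other genes, mainly Slfn10-ps. H2-DMa (chromosome 17, 34119541 to 34139101) shares 7.46% of such stretches with Brd2, with which its annotated exons overlap. H2-K1 (chromosome 17, 33996017 to 34000347) and H2-D1 (chromosome 17, 35262730 to 35267499) share 3.10% and 5.56% with other class I genes. Ifit1 (chromosome 19, 34640871 to 34650009) shares 5.19% with Ifit1bl2, and Irf7 (chromosome 7, 141262706 to 141266481) overlaps exons of Phrf1. B2m (chromosome 2, 122147686 to 122153083), Isg15 (chromosome 4, 156199424 to 156200818) and Ifih1 (chromosome 2, 62595798 to 62646255) share none. The authors did not count reads that align to several places. Stretches shared with genes elsewhere thus lower the counts of Slfn9, H2-K1, H2-D1 and Ifit1 by an unknown amount. Exons that overlap at the same place, as of H2-DMa with Brd2 and Irf7 with Phrf1, are a separate matter. How reads there were assigned was not tested.

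Compared per length, over all kept cells, B2m was the highest member with 82.2 CPM per kilobase of exon. H2-D1 followed with 19.3 and H2-K1 with 15.9, then H2-DMa with 2.42, Slfn9 with 1.19 and Ifit1 with 0.370. Irf7 had 0.0979, Isg15 0.0262 and Ifih1 0.0218 on the same scale. A read of B2m was found in 74.9% of cells, of H2-K1 in 48.4%, of H2-D1 in 46.9%, of Slfn9 in 18.9% and of H2-DMa in 17.3%. The other 4 members each had a read in fewer than 3% of cells.

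**Figure D1:**
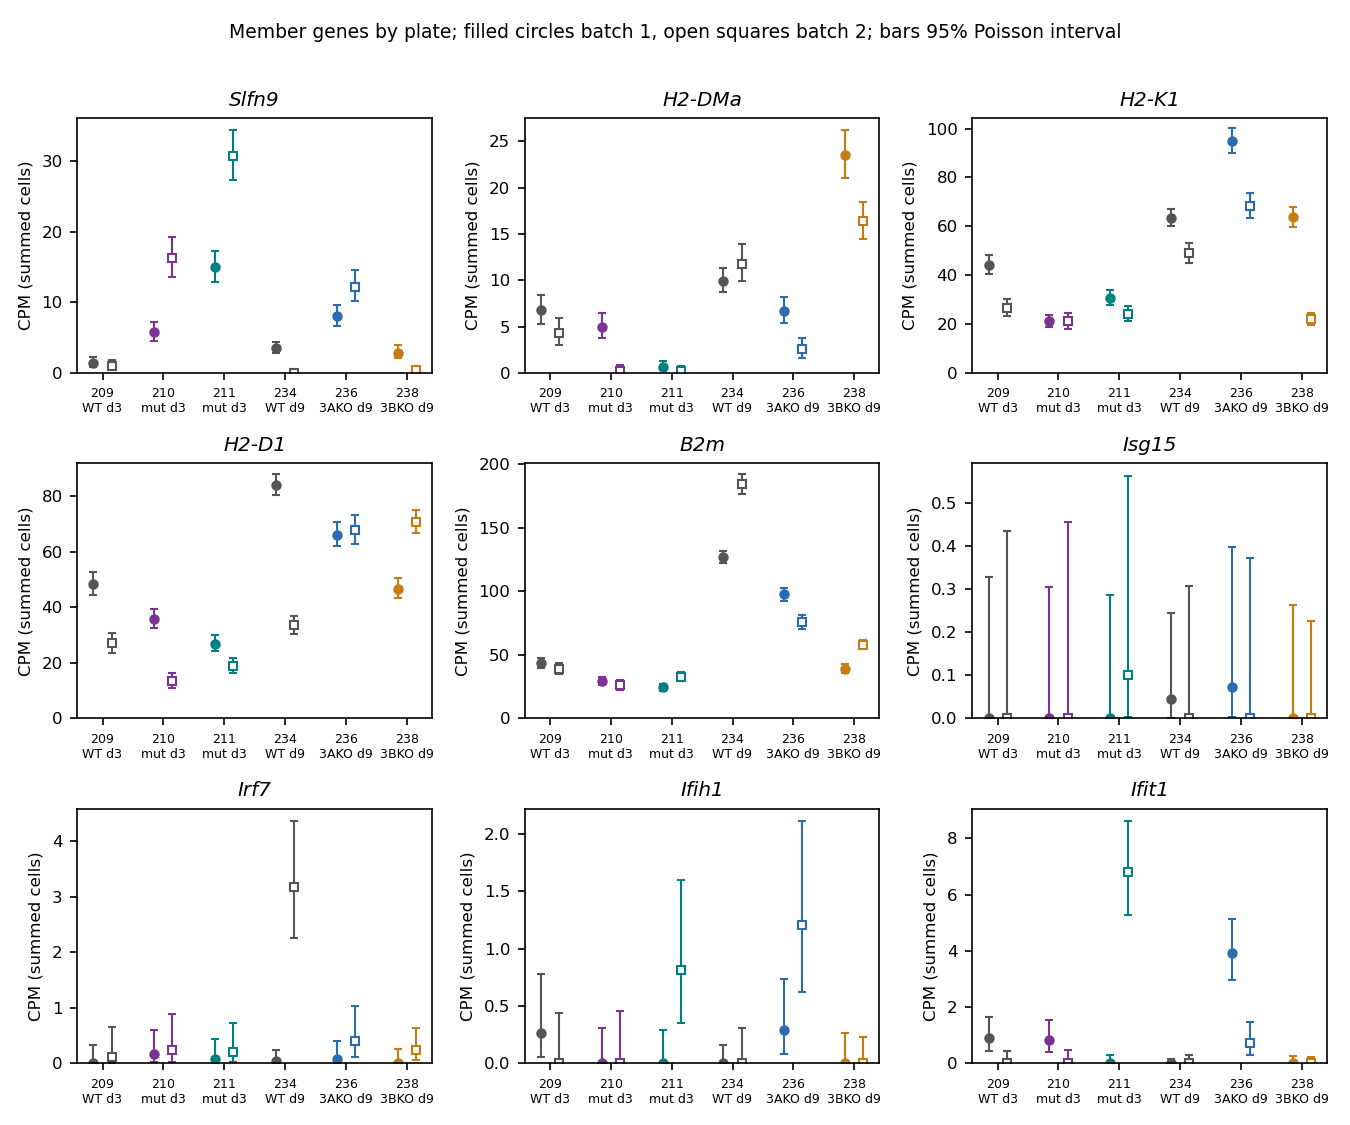
Level of each member in CPM (summed cells) on the 6 plates, with filled circles for batch 1, open squares for batch 2 and bars for the 95% exact Poisson interval of the counts. Slfn9 is highest on plate 211 (15.0 and 30.7 CPM), B2m on plate 234 (127.1 and 184.2 CPM), and Isg15 is at 0 in both batches on plates 209, 210 and 238. The vertical axes differ between genes.

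The members Isg15, Irf7, Ifih1 and Ifit1 gave almost no reads in any genotype. Isg15 had 3 reads in 3 of 486 cells, 1 read each on plate 211, in WT at day 9 and in 3AKO at day 9. On plates 209, 210 and 238 it had 0 reads, which allows up to 0.152, 0.149 and 0.0991 CPM.

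Irf7 had 56 reads in 13 cells. By plate it had 1 read on plate 209, 4 on plate 210, 3 on plate 211, 39 in WT at day 9, 5 in 3AKO at day 9 and 4 in 3BKO at day 9. Of the 39 reads in WT 38 came from 1 cell, and without the top cell of each group the log2 ratio to WT was 0.08 in 3AKO and 0.01 in 3BKO, in place of -0.81 and -0.91.

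Ifih1 had 27 reads in 4 cells, with 3 reads on plate 209, 8 on plate 211 and 16 in 3AKO at day 9. Plates 210, 234 and 238 had 0 reads of Ifih1. In reads, its level in 3AKO at day 9 was 7.78-fold the floor of 3 reads in WT. The 16 reads of 3AKO came from 2 of 88 cells, 12 of them from 1 cell. With so few cells this fold sets no lower bound on a difference between the groups.

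Ifit1 had 149 reads in 6 cells. There were 10 on plate 209, 10 on plate 210, 67 on plate 211 and 62 in 3AKO at day 9, and 0 in WT and in 3BKO at day 9. Each of the 3 day 3 counts came from 1 cell, and the 62 reads of 3AKO came from 3 of 88 cells. In reads, the level of 2.60 CPM in 3AKO at day 9 was 30.2-fold the floor of 3 reads in WT. Cells with a read were 3 of 88 against 0 of 89, so this fold sets no lower bound on a difference between the groups. On plate 211 all 67 reads lay in batch 2, and in batch 1 there were 0.

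Reads of these genes seldom met in 1 cell. With every cell thinned to 50000 reads, 2 of 486 cells had a read of at least 2 of the 4 genes, 1 on plate 211 and 1 in 3AKO at day 9, and 0 cells had 3. A share of up to 0.617% would be allowed by a count of 0 over 486 cells.

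Of 15 interferon ligand genes 14 had 0 reads in the 151500111 reads of the kept cells, and 1 had 1 read, on plate 211. Of 71 interferon-stimulated genes other than H2-K1, H2-D1 and B2m, a cell had reads of 10 at the median, with medians of 10, 10 and 11 on plates 209, 210 and 211 and of 9 in each genotype at day 9. These numbers were not thinned.

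Of the 9 members, Slfn9 had the largest log2 ratio to WT on plates 210 and 211. In WT at day 3 (plate 209) it had 1.42 CPM in batch 1 and 0.945 in batch 2. On plate 210 it had 5.72 and 16.2 CPM, and on plate 211 15.0 and 30.7 CPM. All 4 mutant values of day 3 were above both WT values.

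At day 9 Slfn9 had 3.50 and 0 CPM in WT, 8.03 and 12.2 in 3AKO and 2.85 and 0.369 in 3BKO. Both 3AKO values lay above both WT values, and those of 3BKO overlapped the WT values. In batch 2 of 3AKO most of the Slfn9 reads came from 1 cell, at 224.6 CPM. Ordered by the pooled level, plates 211 (21.8 CPM), 210 (9.94) and 236 (9.77) came first, and neighbours among them overlapped between batches. Plates 234 (2.30), 238 (1.52) and 209 (1.22) followed, again overlapping among themselves but not with plate 236.

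Pooled over batches, Slfn9 was 8.16-fold higher on plate 210 than on plate 209 (95% interval of the counts 5.33 to 13) and 17.9-fold higher on plate 211 (11.9 to 28.2). In 3AKO at day 9 it was 4.25-fold higher than in WT (3.28 to 5.55), and in 3BKO it was 0.661 of the WT level (0.450 to 0.962). On the log2(CPM + 1) scale, used for all log2 ratios here and one that understates the change of low genes, the differences were 2.30, 3.36, 1.71 and -0.39. By batch 1 and batch 2 they were 1.47 and 3.15 on plate 210, 2.72 and 4.03 on plate 211, 1.00 and 3.72 in 3AKO and -0.22 and 0.45 in 3BKO. The pooled value of 3BKO thus lay outside both batch values.

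The cells with a Slfn9 read were a minority on every plate. After thinning, 2.53% of cells (0.308 to 8.85) had one on plate 209, 22.8% (14.1 to 33.6) on plate 210 and 29.8% (20.3 to 40.7) on plate 211. At day 9 the shares were 2.25% (0.273 to 7.88) in WT, 13.6% (7.25 to 22.6) in 3AKO and 2.99% (0.364 to 10.4) in 3BKO. Unthinned, a read was present in 7 of 79, 21 of 79 and 36 of 84 cells at day 3 and in 3 of 89, 21 of 88 and 4 of 67 cells at day 9.

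Single cells weighed heavily in the low groups. One cell held 73.8% of the Slfn9 reads of WT at day 9 and 80.4% of those of 3BKO, against 24.5% on plate 210, 24.4% on plate 211 and 42.5% in 3AKO. By label, Slfn9 had 15.5 CPM in day 3 cells labelled 3AKO and 17 in those labelled 3BKO, so it stood above WT under either grouping. Slfn10-ps, which shares sequence with it, had 4.87, 0.994 and 4.63 CPM on plates 209, 210 and 211 and 0.345, 0.713 and 4.29 on plates 234, 236 and 238. Its order over the plates was not that of Slfn9.

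**Figure D2:**
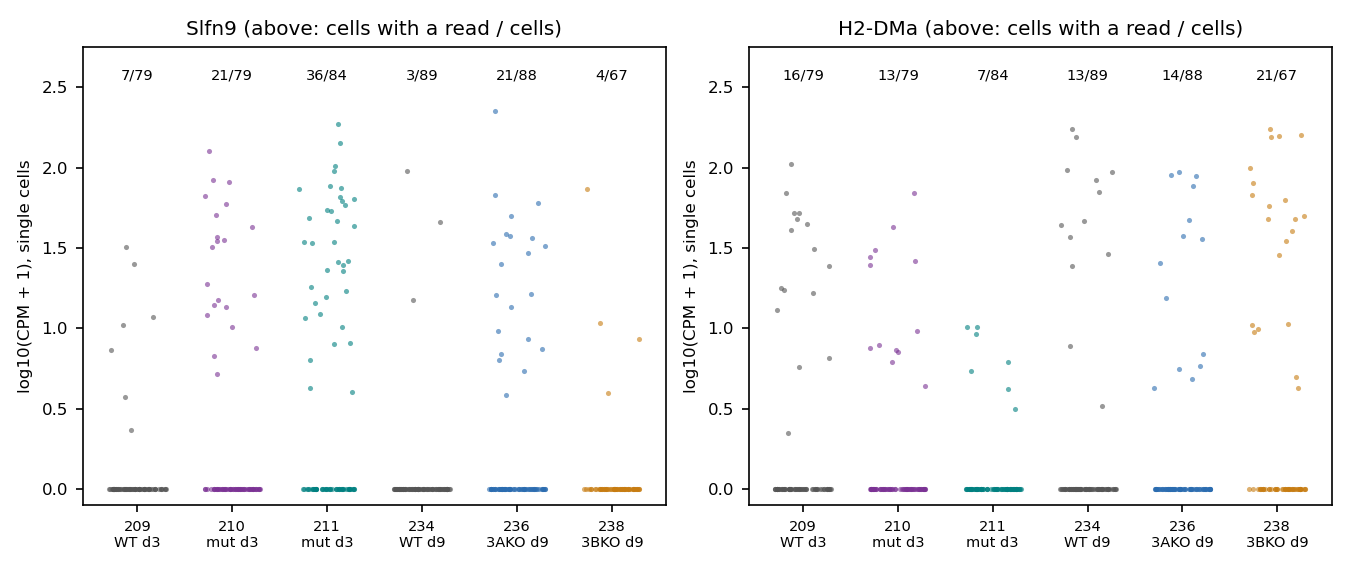
Slfn9 and H2-DMa in single cells by plate, as log10(CPM + 1), with each point a kept cell and the number of cells with a read above each column. Slfn9 has a read in 36 of 84 cells of plate 211 and 7 of 79 cells of plate 209, and H2-DMa in 7 of 84 and 16 of 79.

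Of the 9 genes of the Schlafen list 4 had 0 reads in all kept cells, Slfn1, Slfn2, Slfn14 and Slfnl1. Slfn8, a neighbour of Slfn9 singled out after its values were seen, had 0.761, 3.63 and 5.90 CPM on plates 209, 210 and 211. It had 0.632, 1.68 and 2.11 CPM in WT, 3AKO and 3BKO at day 9, and 76.6% of its reads in 3BKO came from 1 cell. Its log2 ratio to WT was 1.39 on plate 210 and 1.97 on plate 211, and in batch 1 it was 0.85 and 0.91.

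A gene was counted as past the size rule if its log2 ratio was at least 1 in size, with the same sign, in both batches, among genes with a read, in each batch, in 20% of cells or more in 1 of the groups. On plate 210 against plate 209 the rule took in 1.15% of 10290 tested genes as higher and 0.583% as lower. Of the members 5 were tested there, and Slfn9 was past it as higher. On plate 211 the background was 1.80% higher and 1.23% lower of 10408 genes. There Slfn9 was past it as higher and H2-DMa as lower, out of 5 tested members. Since these day 3 ratios were known when the genes were chosen, nothing is read from the counts.

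In 3AKO against WT at day 9 the background was 1.07% higher and 1.59% lower of 9201 genes, and 0 of 3 tested members were past the rule. Slfn9 was detected in 26.2% of 3AKO cells in batch 1 and 18.5% in batch 2, under the limit, so it was not among the tested genes, and 1 cell held 81.8% of its reads in that batch. In 3BKO the background was 2.86% higher and 4.98% lower of 9235 genes, and of 4 tested members B2m was past it as lower. Between the WT days it was 5.25% higher and 2.19% lower at day 9 of 10162 genes, and B2m was past it as higher, out of 4 tested members. Comparisons at one day share their WT cells, and so do both comparisons of WT at day 9.

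**Figure D3:**
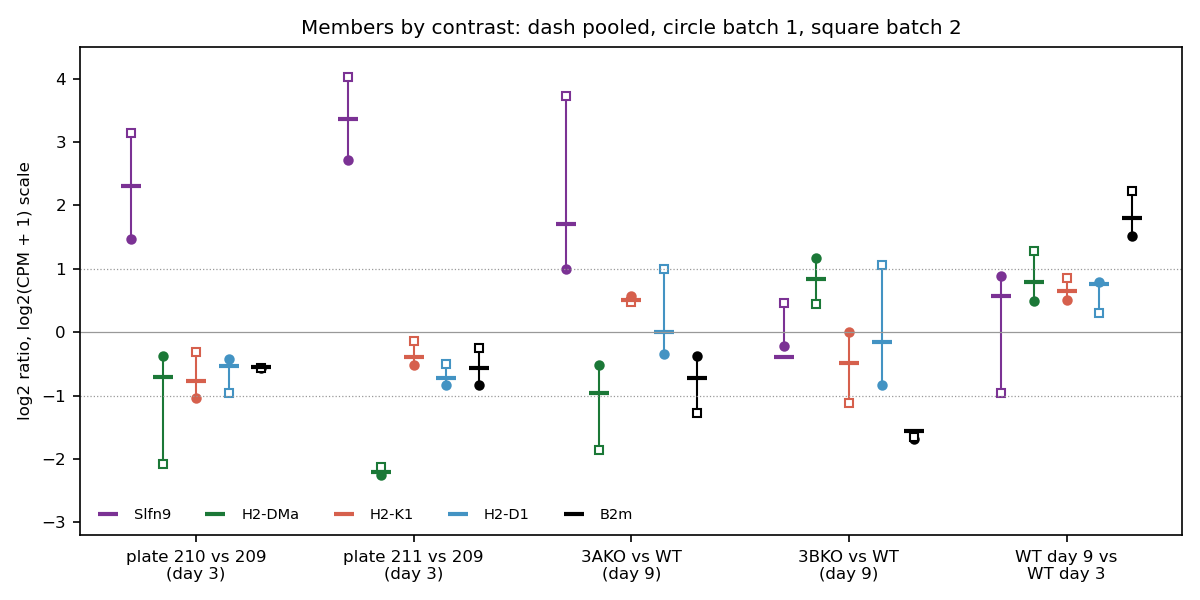
Log2 ratio of 5 members on the log2(CPM + 1) scale in the 5 comparisons, with a dash for both batches pooled, a filled circle for batch 1 and an open square for batch 2, and dotted lines at a ratio of 1 in size. Slfn9 lies above the upper line in both batches on plates 210 and 211, and B2m below the lower line in both batches in 3BKO.

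B2m showed the largest change with time in WT and the largest deficit in 3BKO among the class I members. On plate 209 it had 43.6 CPM in batch 1 and 38.6 in batch 2, on plate 210 29.2 and 25.9, and on plate 211 24.1 and 32.4. At day 9 it had 127.1 and 184.2 CPM in WT, 97.4 and 75.8 in 3AKO and 38.8 and 57.8 in 3BKO. Both WT values were above those of each mutant at each day, and at day 9 the values of 3AKO were also above those of 3BKO.

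From day 3 to day 9 B2m was 3.54-fold higher in WT (3.29 to 3.82), a log2 ratio of 1.80 with 1.52 and 2.22 in the batches. In 3BKO at day 9 its level was 2.99-fold lower than in WT (2.83 to 3.17), with log2 ratios of -1.56 pooled and -1.69 and -1.66 by batch. In 3AKO it was 1.66-fold lower (1.58 to 1.75), with -0.72 pooled and -0.38 and -1.27 by batch. On plates 210 and 211 it was 1.49-fold lower (1.33 to 1.66) and 1.5-fold lower (1.35 to 1.66) than on plate 209.

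The share of cells with a B2m read moved less. It was 59.5% (47.9 to 70.4), 53.2% (41.6 to 64.5) and 50% (38.9 to 61.1) on plates 209, 210 and 211, with overlapping intervals. At day 9 it was 76.4% (66.2 to 84.8) in WT, 73.9% (63.4 to 82.7) in 3AKO and 55.2% (42.6 to 67.4) in 3BKO. At day 9 the median cell, counting those without a read, had 77.8 CPM of B2m if WT, 44.6 if 3AKO and 23 if 3BKO.

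H2-K1 and H2-D1, the heavy chains, did not follow B2m at day 9. H2-K1 had 44.3 and 26.7 CPM on plate 209, 21.1 and 21.2 on plate 210, and 30.7 and 24 on plate 211. At day 9 it had 63.5 and 48.9 CPM in WT, 94.9 and 68.3 in 3AKO, and 63.8 and 21.9 in 3BKO. The 3AKO values were both above the WT values, and the 3BKO values spanned them.

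Against WT, H2-K1 was 1.43-fold higher in 3AKO at day 9 (1.35 to 1.52), with a log2 ratio of 0.51 and 0.57 and 0.47 by batch. In 3BKO its log2 ratio was -0.49, with 0.00 in batch 1 and -1.12 in batch 2, so the pooled value rests on batch 2. On plates 210 and 211 the log2 ratios were -0.77 and -0.39.

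H2-D1 had 48.4 and 26.9 CPM on plate 209, 35.8 and 13.4 on plate 210, and 26.8 and 18.8 on plate 211. At day 9 it had 84 and 33.5 CPM in WT, 66.1 and 67.8 in 3AKO, and 46.7 and 70.7 in 3BKO. The groups of day 9 overlapped, and every neighbouring pair of plates in the order of H2-D1 levels overlapped between batches. Its log2 ratio to WT was 0.00 in 3AKO (-0.34 and 1.00 by batch) and -0.16 in 3BKO (-0.84 and 1.06), opposite in sign between batches in both. At day 3 the log2 ratio of H2-D1 was -0.53 on plate 210 (-0.42 and -0.96) and -0.72 on plate 211 (-0.83 and -0.50). Compared within each batch, H2-D1, H2-K1 and B2m were thus all lower on both mutant plates than on plate 209.

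H2-K1 and H2-D1 were past the size rule in none of the 5 comparisons. In WT, H2-K1 was 1.59-fold higher (1.46 to 1.74) and H2-D1 1.70-fold higher (1.57 to 1.85) at day 9 than at day 3. The median log2 ratio of all detected genes in that comparison was 0.18, and it was between -0.10 and 0.04 in the other 4.

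On both mutant plates of day 3, fewer cells than in WT had reads of H2-K1, H2-D1 and B2m together. After thinning, 27.8% of cells on plate 209 (18.3 to 39.1) had all 3, against 10.1% (4.47 to 19) on plate 210 and 8.33% (3.42 to 16.4) on plate 211. The intervals of plates 209 and 210 overlapped, and those of plates 209 and 211 did not. Within batch 1 the shares were 31.5%, 13% and 10.3%, and within batch 2 20%, 4% and 3.85%. In each batch the interval of plate 209 overlapped those of both mutant plates. At day 9 the shares were 18% (10.6 to 27.5) in WT, 17% (9.87 to 26.6) in 3AKO and 11.9% (5.30 to 22.2) in 3BKO, with overlapping intervals. Unthinned, the day 3 shares were 36.7%, 21.5% and 22.6%, and in batch 2 36%, 12% and 30.8%.

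**Figure D4:**
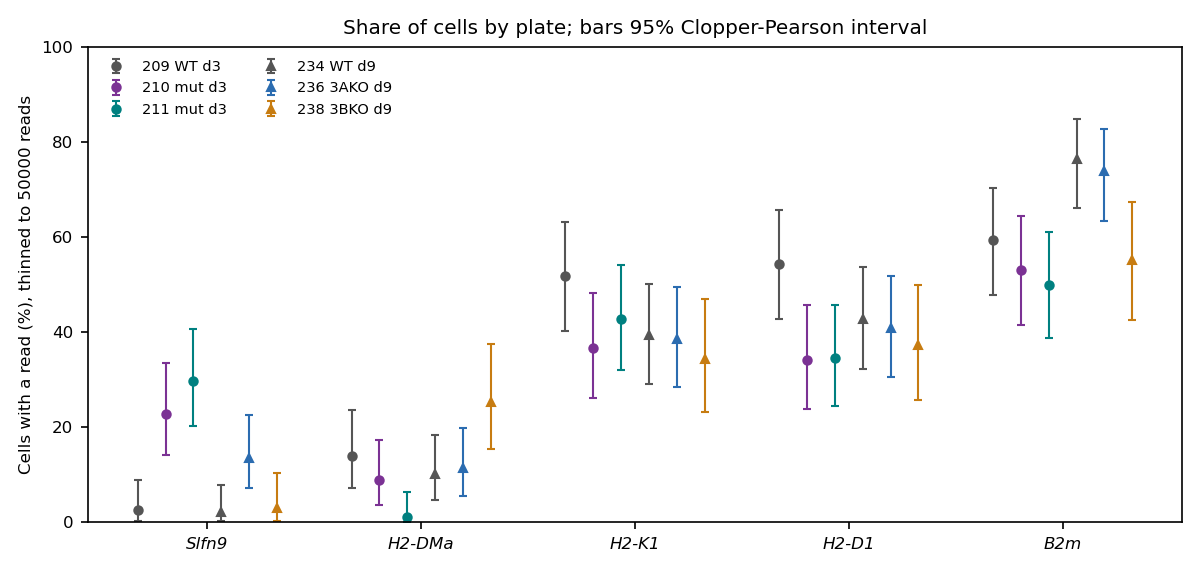
Share of cells with a read after thinning to 50000 reads, for 5 members on the 6 plates, with circles for day 3, triangles for day 9 and bars for the 95% Clopper-Pearson interval. Slfn9 is found in 22.8% and 29.8% of cells on plates 210 and 211 and in 2.53% on plate 209, while the intervals of H2-K1 overlap on all plates.

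H2-DMa differed in opposite directions between the knockouts at day 9. It had 9.93 and 11.8 CPM in WT, 6.66 and 2.52 in 3AKO, and 23.5 and 16.4 in 3BKO. None of these 3 groups overlapped between batches. At day 3 it had 6.76 and 4.25 CPM on plate 209, 4.98 and 0.248 on plate 210, and 0.624 and 0.203 on plate 211, and both values of plate 211 were below those of plate 209.

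H2-DMa was 12.9-fold lower on plate 211 than on plate 209 (6.76 to 27.6), from 10 reads against 112. On plate 210 it was 1.84-fold lower (1.34 to 2.56), with a log2 ratio of -0.38 in batch 1 and -2.07 in batch 2. In 3AKO at day 9 it was 2.14-fold lower than in WT (1.73 to 2.65), and in 3BKO 1.86-fold higher (1.63 to 2.13). The log2 ratios in 3BKO were 1.17 in batch 1 and 0.44 in batch 2. By label, H2-DMa had 0.478 CPM in day 3 cells labelled 3AKO and 2.83 in those labelled 3BKO.

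After thinning, H2-DMa was found in 13.9% of cells on plate 209, 8.86% on plate 210 and 1.19% on plate 211. At day 9 it was found in 10.1% of WT cells, 11.4% of 3AKO cells and 25.4% of 3BKO cells (15.5 to 37.5). The interval of 3BKO overlapped that of WT (4.73 to 18.3).

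Brd2, the chromatin reader whose exons overlap H2-DMa, had log2 ratios of -0.04 on plate 210, -0.71 on plate 211, 0.40 in 3AKO and 1.08 in 3BKO. Between WT days it was -1.61, where H2-DMa was 0.79. The signs of both genes were the same on plates 210 and 211 and in 3BKO and opposite in 3AKO and between the WT days. How many reads counted as H2-DMa came from Brd2 transcripts was not tested.

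The other genes of MHC class II were sparse. Ciita, the master activator of class II genes, had 1 read in all kept cells, and H2-Aa had 121 reads, all in 1 cell of 3BKO at day 9. Cd74, the invariant chain, was past the size rule as higher in 3BKO at day 9, with 13.6 CPM in 25 of 67 cells against 1.44 in 10 of 89 WT cells. H2-DMb1, which encodes the partner of H2-DMa and was singled out after its values were seen, had 3.15, 0.596 and 0.264 CPM on plates 209, 210 and 211 and 3.13, 0.838 and 5.98 in WT, 3AKO and 3BKO at day 9. Its order among the plates of each day was that of H2-DMa. The low values of H2-DMb1 rest on 12 reads in 4 cells on plate 210, 6 in 2 cells on plate 211 and 20 in 4 cells in 3AKO.

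Markers of immune and other cell types were read beside these values. Ptprc, Csf1r and Lyz2, which define blood and myeloid cells, had 0 reads on all plates. The 15 immune markers summed to 31.6 to 41.1 CPM at day 3 and to 65.3, 53.7 and 119.4 CPM in WT, 3AKO and 3BKO at day 9, with 7 to 10 of them having reads on a plate. The lysosomal gene Cd68 gave 92.2 CPM of the 3BKO sum and was past the size rule there. Of 8 endothelial markers Pecam1 was past it as higher in 3BKO (136.5 against 37.9 CPM), while the median log2 ratio of that list was -1.27 and Cdh5, Emcn and Tie1 had 0 reads in 3BKO. Of the pluripotency and epiblast list all 12 genes had reads on every plate, and in 3BKO at day 9 Klf4 and Zfp42 were past the rule as higher and Fgf5 as lower. Extraembryonic endoderm markers, read in 8 to 11 of 12 genes, summed to 67.3 CPM on plate 209 against 11.8 on plate 210 and 10.0 on plate 211, and to 117.5, 97 and 12.6 CPM in WT, 3AKO and 3BKO at day 9. On plate 209 that sum was 114.9 CPM in batch 1 and 4.02 in batch 2, where plates 210 and 211 had 2.11 and 11.5, so the order of plates 209 and 211 turned with the batch. One cell held 94.4% of the plate 209 reads of Dab2, the highest gene of the list there. The part of cell composition in the differences of the members was not tested.

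Genes that act with the members were read from lists, against the same comparisons. Of 74 interferon-stimulated genes, which include 8 of the members, 23 were tested on plate 210 and 24 on plate 211. Slfn9 was past the size rule as higher on both plates, and Parp12 (5.66 against 15.5 CPM) and the GTPase gene Irgm1 (6.46 against 15.9) as lower on plate 210. The median log2 ratio of the detected list genes was -0.31 on plate 210 and -0.03 on plate 211, against 0.04 and 0.01 for all detected genes.

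In 3AKO at day 9, 17 genes of that list were tested and Ddx58 (RIG-I), a sensor of viral RNA, was past the rule as lower, with 17.5 CPM against 46.7 in WT. The list median was -0.11, against -0.10 for all detected genes. In 3BKO 20 were tested, of which 2 were past it as higher and 3 as lower. Among the higher genes Oas1a, an enzyme activated by double-stranded RNA, had 12.7 against 1.92 CPM, in 18 of 67 and 6 of 89 cells. The lower genes were B2m, Bst2 (1.39 against 11.6 CPM), which tethers virions, and Ifi35 (0.858 against 10.6 CPM), whose 26 reads in 3BKO came from 1 cell. The list median was -0.18, against -0.07.

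**Figure D5:**
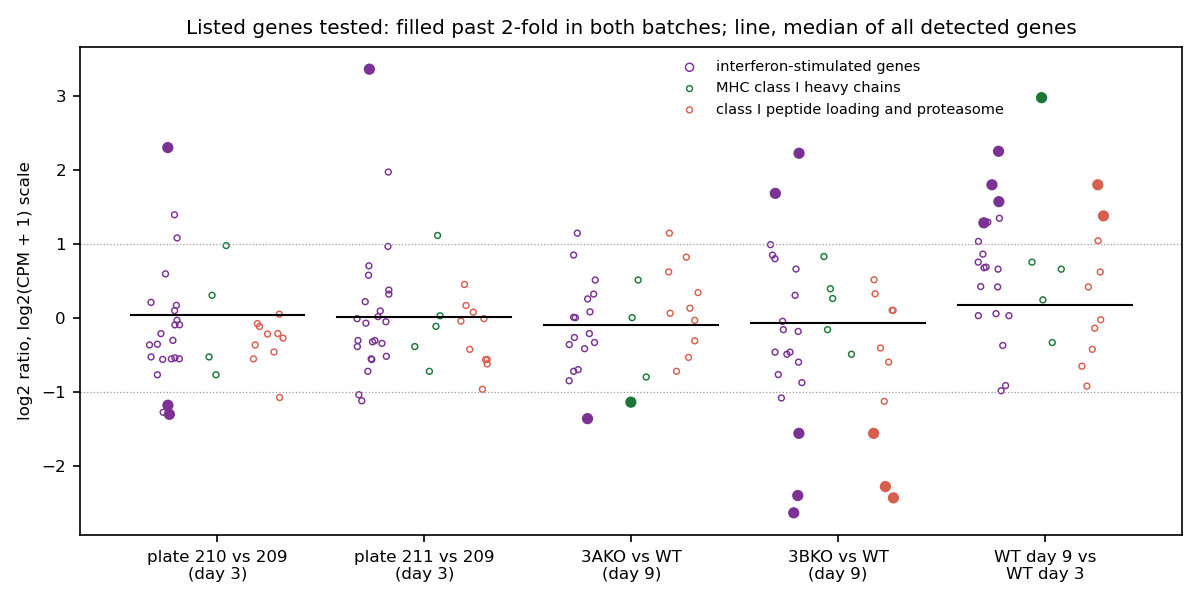
Log2 ratio of the tested genes of 3 lists in the 5 comparisons, with filled points for genes past the size rule in both batches and a black line for the median of all detected genes. In 3BKO against WT the class I loading list has 3 filled points, all below -1, and the interferon-stimulated list has 2 above 1 and 3 below -1.

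Between the WT days 20 genes of the interferon-stimulated list were tested and 4 were past the rule, all as higher at day 9. These were Ifitm1, with 1266.5 against 265.0 CPM, Ifitm3, with 598.2 against 200.7 CPM, B2m and Ddx58. Ifitm1 and Ifitm3 encode membrane proteins that restrict viral entry and are also known markers of early germ and pluripotent cells. The median of the detected list genes was 0.68, against 0.18 for all detected genes.

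Of 10 tested genes of the class I loading and proteasome list 3 were past the rule in 3BKO at day 9, all as lower. These were B2m, Psme2, a subunit of the proteasome activator PA28, with 37.4 against 206.6 CPM, and the immunoproteasome subunit Psmb10, with 21.9 against 110.4 CPM. The chaperone genes Calr and Pdia3 are named here after seeing their values. Calr, with 720.9 against 575.5 CPM, and Pdia3, with 1027.3 against 718.6, had higher values in 3BKO without passing it, and 4 of the 10 detected genes had a log2 ratio above 0. In 3AKO and on plates 210 and 211, 0 of 10 tested genes of that list were past it in either direction. Tap1, the peptide transporter, had 2.18 to 8.84 CPM over the 6 plates and was not among the genes past the rule.

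Of the heavy chain list, H2-Bl was past the rule as higher in WT at day 9 against day 3 (17.7 against 1.37 CPM) and as lower in 3AKO at day 9 (7.46 against 17.7 CPM). H2-K1 and H2-D1 share sequence with other class I genes. How far H2-Bl does was not analysed here, so its level is uncertain. Of the receptor and JAK-STAT list, 0 of 8 tested genes were past the rule in 3AKO at day 9, 0 of 10 on plate 210 and 0 of 9 on plate 211. In 3BKO 1 of 7 was past it as lower, the interferon gamma receptor chain Ifngr2 (8.72 against 24.2 CPM). Of the sensor and signalling list 0 of 8 on plates 210 and 211 each and 0 of 7 in 3BKO were past it.

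Over the 9 members the median log2 ratio was -0.20 on plate 210, 0.06 on plate 211, 0.02 in 3AKO, -0.16 in 3BKO and 0.66 between the WT days. These medians include members with almost no reads. Over the members with more than 3 reads in either group they were -0.53 on plate 210, -0.39 on plate 211 and 0.26 in 3AKO. In 3BKO the median was then -0.44, and between the WT days 0.75, so the sign on plate 211 turned. By batch 1 and batch 2 the median over all 9 was -0.34 and 0 on plate 210, -0.51 and 0.11 on plate 211, 0.04 and 0.47 in 3AKO, -0.06 and 0 in 3BKO and 0.49 and 0.30 between the WT days. The members did not share a direction between genotypes.

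Across the 12 pools of genotype, day and batch as labelled, the members detected in at least 20% of all kept cells were H2-K1, H2-D1 and B2m. Pearson's r of log2(CPM + 1) was 0.65 for H2-K1 and H2-D1, 0.66 for H2-K1 and B2m and 0.61 for H2-D1 and B2m. The protein-coding genes most like B2m over the 12 pools were Hacd1 (r of 0.95), Txndc17 (0.94) and Cd63 (0.93). Those most like H2-K1 were Cct5 (0.91), Sgf29 (0.91) and Cct3 (0.91), and those most like H2-D1 were Timm22 (0.95), Gstm1 (0.92) and Mtfp1 (0.92). The pools share plates and depth, 8725 genes were searched, and these values are a description.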

How the data were processed

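Read counts per gene for 550 single cells, 1 live cell sorted per well and amplified by Smart-seq2 with no molecular identifiers, were deposited by the authors. Per the study's methods and the submitters' processing notes, single-end reads were trimmed with Trim Galore 0.5.0, checked with FastQC 0.11.2, aligned to GRCm38 with STAR 2.7.1a and counted over exons with featureCounts 1.6.1, leaving out multi-mapped reads. Whether counting used strand is not given in the sources used here. A further 26 columns belong to no listed sample and were not used.

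Cells with at least 50000 reads, 2000 genes and at most 50% mitochondrial reads were kept. No doublet caller was run, since wells were sorted singly. Counts were summed by genotype, day, batch and plate into CPM, with exact Poisson intervals, exact conditional binomial intervals of folds and exact Clopper-Pearson intervals of shares, all at 95%. PCR copies are not independent molecules, so intervals and the floor of 3 counts cover counting error only. Shares were taken after thinning each kept cell to 50000 reads, and log2 ratios used a pseudocount of 1 CPM. Each group was 1 sample, so no test was run and no p-value is given.

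A gene was tested by size if, in each batch, 20% of cells or more had a read in 1 of the groups, and called if its log2 ratio was at least 1 in size with 1 sign in both. The text names the members and listed genes past that rule, markers at 0, and genes sharing exon sequence, with exceptions stated. Some results for listed genes are not reported here. The members and lists were chosen with earlier results of these data known. Positions and exon lengths came from GENCODE vM21, not the M23 release the authors counted with, and promoters from RefSeq (GRCm38.p6). The scripts were tested on simulated data. Python 3.11.15 (numpy 2.4.6, pandas 2.3.3, scipy 1.17.1, matplotlib 3.10.9) and, for alternative scaling only, R 4.3.3 with edgeR 4.0.16 and DESeq2 1.42.0 were used. Alternatives covered cell filters, batches, thinning, the top cell, scaling, pseudocount and detection limit.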

Additional observations from a re-analysis of the deposited data

Results flagged for a closer look

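H2-DMa differed from WT in opposite directions in the knockouts at day 9. Its log2 ratio to WT was -0.96 in 3AKO, with -0.51 in batch 1 and -1.86 in batch 2, and 0.84 in 3BKO, with 1.17 and 0.44. It stood out because both batches of 3AKO lay below WT and both batches of 3BKO above it. The difference between the knockouts was not tested, since each group is 1 sample, and both ratios use the same WT cells. Brd2, whose exons overlap H2-DMa, differed from WT by a log2 ratio of 0.40 in 3AKO and 1.08 in 3BKO. Its part in the H2-DMa counts was not tested.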

How the results depend on the processing

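No paired analysis was possible because each group is 1 sample and the values come from no test. The log2 ratio of Slfn9 kept its sign under all 12 alternatives on plates 210 and 211 and in 3AKO at day 9, as did that of B2m in 3BKO and between the WT days, and that of H2-DMa on plate 211 and in both knockouts. H2-D1 in 3AKO kept its sign in 10 of 12, and so did Slfn9 in 3BKO and between the WT days. The medians over the 9 members moved under several alternatives. With batch 1 alone they were -0.51 on plate 211, -0.062 in 3BKO and 0.49 between the WT days, and with batch 2 alone 0.47 in 3AKO, 0 in 3BKO and 0.30 between the WT days. Thinning gave 0 in 3BKO and -0.52 on plate 210, and leaving out the top cell of each gene gave 0 in 3BKO and 0.041 between the WT days. A pseudocount of 0.1 CPM gave -0.36 in 3BKO, -0.54 on plate 210 and 0.53 on plate 211, and one of 10 CPM gave -0.094 in 3BKO and 0.15 between the WT days. Under TMM factors the median was -0.10 in 3BKO and 0.45 between the WT days, where median-ratio factors gave 0.48 and the mean over cells 0.45, and these factors moved the median of all genes between the WT days by -0.22 and -0.18. Alternatives chosen after seeing the data were members with more than 3 reads, with -0.44 in 3BKO, -0.53 on plate 210 and -0.39 on plate 211, and centring on all detected genes, with 0.48 between the WT days. The cause of these moves was not tested.

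The number of genes past the size rule depended on how many genes were tested. With detection in at least 10% of cells it was 446 in place of 244 in 3AKO, where Slfn9 was then past the rule as higher, 1106 in place of 724 in 3BKO and 271 in place of 178 on plate 210. At 40% it was 95 in 3AKO (28 higher and 67 lower), 393 in 3BKO, 82 on plate 210 (70 higher and 12 lower, against 118 and 60), 176 in place of 315 on plate 211 and 477 in place of 756 between the WT days. Slfn9 and H2-DMa were then not among the genes tested on plates 210 and 211. With batch 1 alone, also chosen after seeing the data, it was 643 on plate 210 and 926 on plate 211, and H2-K1 was past the rule as lower on plate 210. The share of cells with all 3 class I genes was 21.5% on plate 210 and 22.6% on plate 211 without thinning. The reads of Isg15, Irf7, Ifih1 and Ifit1 each come from 13 cells or fewer, and the part of depth in this was not tested.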
